A study of Mus musculus with 12 samples.

Results

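The genes described here are 10 members of the purinergic and adenosine signalling system of the mouse spinal cord. They are the ATP-gated channels P2rx4 and P2rx7, the P2Y receptors P2ry1, P2ry2, P2ry6 and P2ry14, the ectonucleotidases Entpd1 and Nt5e, and the adenosine receptors Adora2a and Adora3. They were chosen by gene symbol with earlier results of these data known, and each symbol matched 1 of the 45906 genes of the deposited table. All 10 passed the filter on low counts, which kept 20155 genes. RNA of spinal cord was sequenced in 12 libraries of mice aged 7 months, with 3 libraries in each of 4 genotypes. The labels number the libraries but do not name the animals. The study describes the 3 samples per genotype as biological replicates, and the p-values measure the spread between libraries. The genotypes were Plekhg5+/+, Plekhg5-/-, Plekhg5+/+ SOD1-G93A and Plekhg5-/- SOD1-G93A. The SOD1-G93A animals express a mutant human SOD1 transgene and serve as a model of familial amyotrophic lateral sclerosis (ALS), and Plekhg5 encodes a guanine exchange factor linked to motoneuron disease. The study crossed both lines to ask how loss of Plekhg5 modifies the phenotype of SOD1-G93A mice, and all mice were kept on a C57BL/6 background.

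Cells release ATP and other nucleotides when they are active or damaged, and these act as extracellular signals. P2X channels open on binding ATP, and P2Y receptors couple ATP, ADP, UTP, UDP or UDP-sugars to G proteins. Ectonucleotidases on the cell surface then degrade the nucleotides stepwise to adenosine, which acts on its own family of receptors. In the central nervous system the pathway is known above all from microglia, which sense nucleotides of injured cells through P2X and P2Y receptors, but astrocytes, neurons, endothelium and meninges also use parts of it.

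The libraries held between 30415643 and 38743628 counts. Levels are given as CPM, counts scaled to the normalized size of each library, with the standard deviation (SD) over 3 libraries. Plekhg5 had 19.4 to 25.0 CPM in the 6 Plekhg5+/+ libraries, with or without SOD1-G93A, and 3.28 to 4.72 CPM in the 6 Plekhg5-/- libraries. Human SOD1 had 4420 to 5640 CPM in the SOD1-G93A libraries and 0.153 to 5.47 CPM in the others, so that the libraries matched their labels. The neuronal, oligodendrocyte and motoneuron markers that define spinal cord were present in every library, with motoneuron markers at a sum of 201 to 306 CPM. The first Plekhg5+/+ SOD1-G93A library stood apart in its group, with a sum of 1870 CPM for 12 markers of microglia and macrophages against 963 and 1040 CPM in the other SOD1-G93A libraries with Plekhg5. In bulk tissue, fewer cells of a type and less RNA per cell cannot be told apart.

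Per kilobase of exon, the levels of the 10 genes in Plekhg5+/+ spinal cord spanned more than an order of magnitude. P2rx4 was the most abundant, with 6.76 to 7.10 CPM per kb over the 3 Plekhg5+/+ libraries. P2ry1 followed with 5.45 to 5.88 CPM per kb, below each value of P2rx4. Entpd1 (2.93 to 3.31 CPM per kb) and P2rx7 (2.83 to 3.24 CPM per kb) overlapped each other and came next. Nt5e had 1.68 to 2.52 CPM per kb and did not overlap its neighbours in this order. P2ry6 (0.855 to 1.12 CPM per kb) and P2ry14 (0.738 to 0.959 CPM per kb) overlapped each other. Adora2a had 0.425 to 0.589 CPM per kb, Adora3 0.323 to 0.425 and P2ry2 0.330 to 0.400, so Adora2a met Adora3 at one end and Adora3 and P2ry2 overlapped. The 5 most abundant members rested on 208 to 882 counts per library, whereas P2ry2, P2ry6, P2ry14, Adora2a and Adora3 rested on 18 to 236.

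**Figure D1:**
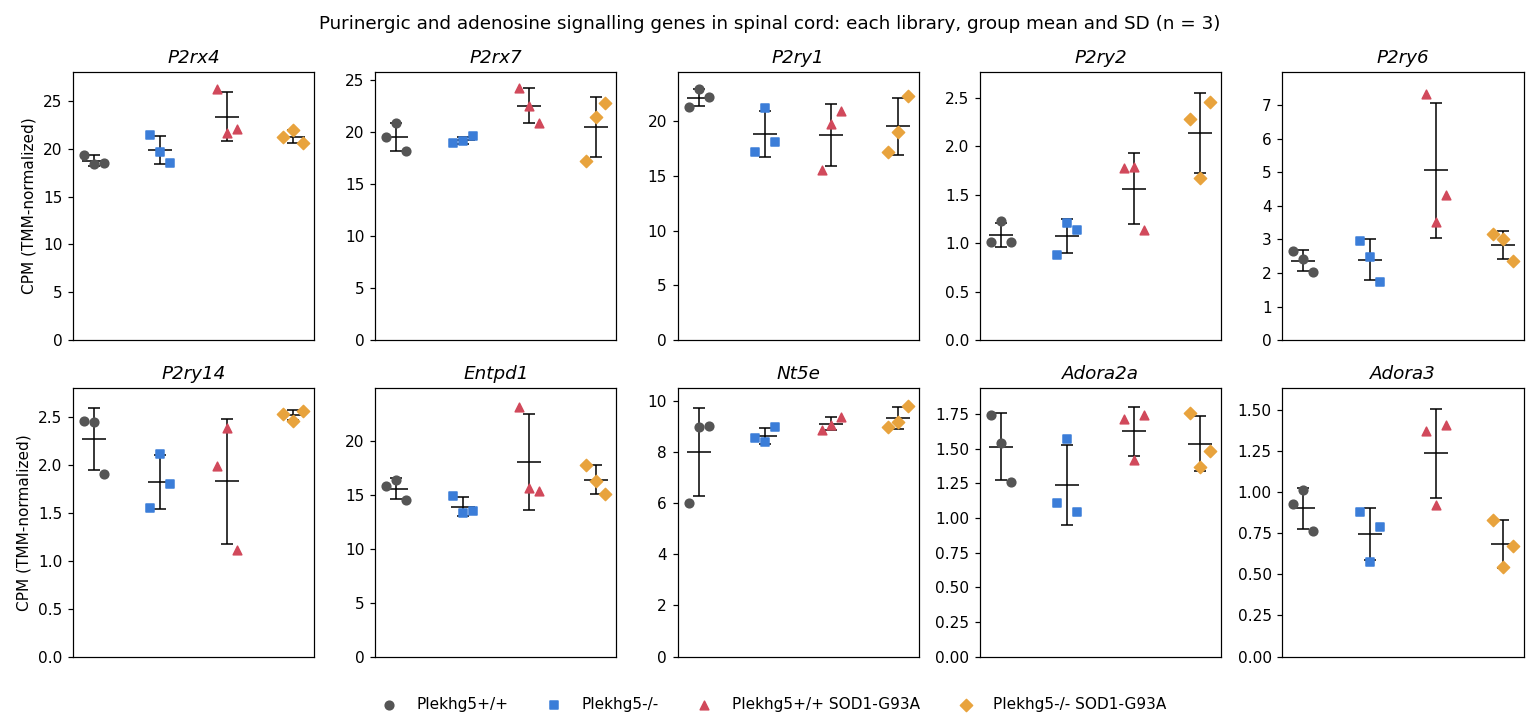
CPM of the 10 genes (vertical axes, each starting at 0) in the 12 libraries, with 1 point per library, a horizontal line for the group mean and bars for the SD (n = 3). P2ry6 ranged from 3.53 to 7.33 CPM in Plekhg5+/+ SOD1-G93A mice and lay at or below 3.15 CPM in all other libraries.

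With Plekhg5 intact, SOD1-G93A raised 1 of the 10 genes, P2ry6, and lowered none at an adjusted p under 0.05 (edgeR's quasi-likelihood test, adjusted over all genes tested). Of all 20155 genes tested, 2.47% passed in this comparison and 2.09% passed upward. At an unadjusted p under 0.05, 3 members were higher (P2rx4, P2ry2 and P2ry6) and 0 lower, beside 10.6% of all genes upward and 18.2% in either direction. The 3 libraries of Plekhg5+/+ SOD1-G93A lay above the 3 Plekhg5+/+ libraries in P2rx4, P2rx7 and P2ry6 and below them in P2ry1, thus in 4 of 10 members, beside 20.6% of all genes. The median log2 fold change of the members was 0.21, against 0.00 for all genes tested.

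When SOD1-G93A mice without and with Plekhg5 were compared, 0 of the 10 genes passed, with adjusted p-values of 0.402 to 0.941 in edgeR's test, and DESeq2 called 0 as well. Over all genes, 0.0347% passed. At an unadjusted p under 0.05, P2ry6 and Adora3 were lower in Plekhg5-/- SOD1-G93A mice (2 of 10 members, beside 5.05% of all genes downward and 8.64% in either direction). In both genes the 3 Plekhg5-/- SOD1-G93A libraries lay below the 3 Plekhg5+/+ SOD1-G93A libraries, and in P2ry14 they lay above them, so 3 of 10 members did not overlap, beside 19.5% of all genes. The same Plekhg5+/+ SOD1-G93A libraries enter this and the previous comparison with opposite signs.

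Without the transgene, loss of Plekhg5 gave 0 calls among the 10 genes (0.0298% of all genes), with 0 members at an unadjusted p under 0.05 (5.32% of all genes) and 0 calls by DESeq2. Only P2ry1 did not overlap between these genotypes and lay lower in Plekhg5-/- libraries (1 of 10 members, 3.99% of all genes in that direction and 8.71% in either).

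In mice without Plekhg5, SOD1-G93A gave 0 calls (0.00496% of all genes, which is human SOD1 itself) and 0 calls by DESeq2. At an unadjusted p under 0.05, 1 member, P2ry2, was higher (3.27% of all genes upward, 5.38% in either direction). The SOD1-G93A libraries lay above the others in 4 of 10 members, P2ry2, P2ry14, Entpd1 and Nt5e, beside 7.25% of all genes upward and 12.5% in either direction. The interaction, which tests whether the effect of SOD1-G93A differs between mice with and without Plekhg5, was called for 0 of the 10 genes and for 0% of all genes. P2ry6 and P2ry14 had an unadjusted p under 0.05 for it (9.05% of all genes), in opposite directions, and DESeq2 called 0 members.

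**Figure D2:**
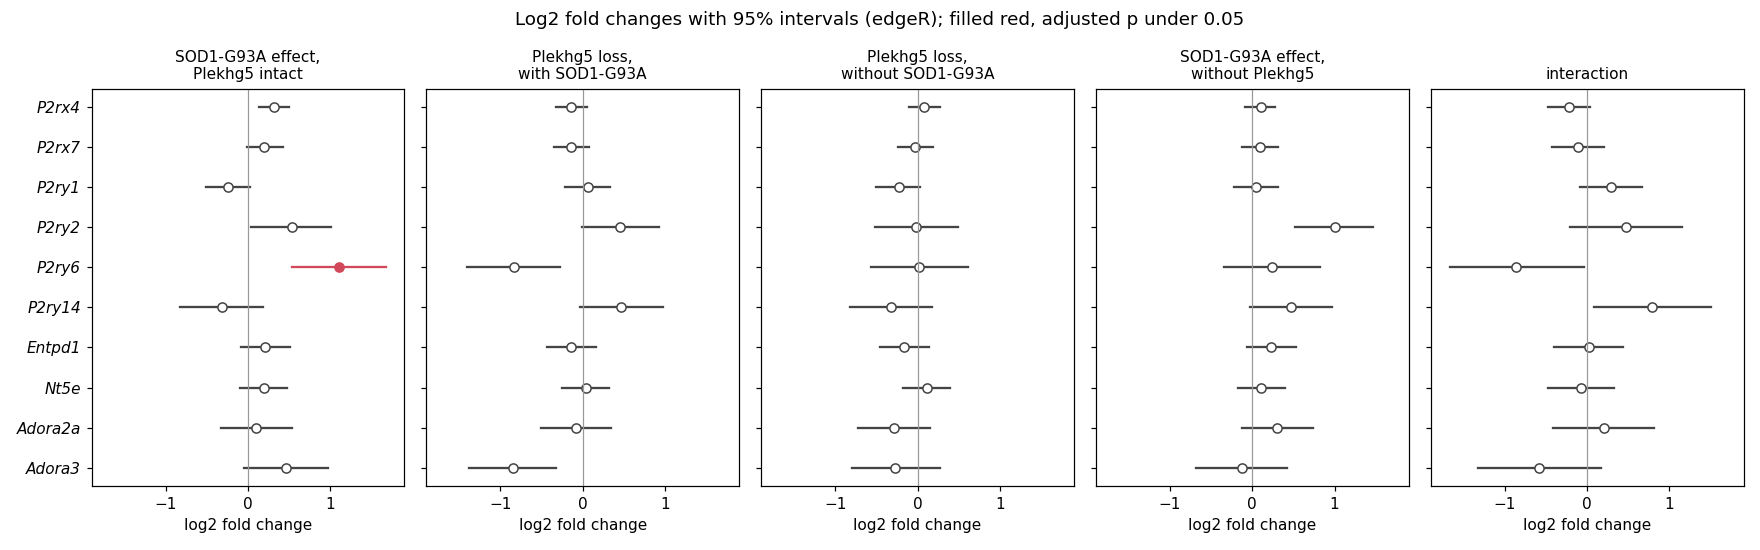
Log2 fold changes (horizontal axes) of the 10 genes in the 4 comparisons of genotypes and in the interaction, with lines for the 95% confidence intervals of edgeR's fit. Only P2ry6 with SOD1-G93A and Plekhg5 intact, drawn in filled red at 1.10, passed an adjusted p under 0.05.

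P2ry6 encodes a receptor for UDP that is known for its role in phagocytosis by microglia. On chromosome 7 of GRCm38.p6 it occupies 100937630 to 100975498 on the minus strand. Its levels were 2.64, 2.42 and 2.02 CPM in the Plekhg5+/+ libraries and 7.33, 3.53 and 4.32 CPM in the Plekhg5+/+ SOD1-G93A libraries. All SOD1-G93A libraries with Plekhg5 lay above all wild-type ones, and the first of them was the highest of the 12. The log2 fold change was 1.10 (standard error 0.26, 95% interval 0.53 to 1.67, adjusted p = 0.049 in edgeR's quasi-likelihood test). In the Plekhg5-/- SOD1-G93A libraries P2ry6 had 3.15, 3.01 and 2.36 CPM, each below every Plekhg5+/+ SOD1-G93A library and within or slightly above the range of the non-transgenic mice. The log2 fold change between the SOD1-G93A genotypes was -0.84 (standard error 0.26, 95% interval -1.40 to -0.28) and did not pass the test (adjusted p = 0.432, edgeR), and it was -0.47 without the first Plekhg5+/+ SOD1-G93A library. Without the transgene P2ry6 had 2.96, 2.47 and 1.74 CPM in Plekhg5-/- mice, a group that overlapped Plekhg5+/+ (log2 fold change 0.02, 95% interval -0.57 to 0.61). The log2 fold change of SOD1-G93A without Plekhg5 was 0.24 (95% interval -0.34 to 0.82), and the interaction was -0.86 (standard error 0.37, adjusted p = 0.526, edgeR).

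The call of P2ry6 lay close to the threshold. Without the first Plekhg5+/+ SOD1-G93A library the log2 fold change was 0.73 (adjusted p = 0.19, edgeR). The call was also lost without any 1 of the 3 Plekhg5+/+ libraries (adjusted p = 0.0959, 0.166 and 0.108 in their order), without the second Plekhg5-/- library (0.072) and without any 1 of the 3 Plekhg5-/- SOD1-G93A libraries (0.0602, 0.0719 and 0.059), at log2 fold changes of 0.98 to 1.19 (edgeR). DESeq2 without a prior called the gene with an adjusted p of 0.0051.

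P2rx4 and P2rx7 are neighbours on chromosome 5 on the plus strand, P2rx7 from 122643927 to 122692336 and P2rx4 from 122707518 to 122729739. P2rx4 encodes an ATP-gated channel that microglia are known to increase after nerve injury. It had 19.4, 18.4 and 18.5 CPM in Plekhg5+/+ and 26.3, 21.7 and 22.1 CPM in Plekhg5+/+ SOD1-G93A libraries, with no overlap. The difference was small, with a log2 fold change of 0.32 (standard error 0.08, 95% interval 0.13 to 0.50), and narrowly missed the threshold (adjusted p = 0.0706, edgeR). It passed with DESeq2 (log2 fold change 0.31, adjusted p = 0.0271), without the first Plekhg5-/- library (0.30, adjusted p = 0.0496, edgeR) and without the second Plekhg5+/+ SOD1-G93A library (0.35, adjusted p = 0.0471, edgeR). P2rx4 was called in 2 of the 12 fits that left out 1 library. Without the first Plekhg5+/+ SOD1-G93A library, the highest of the 12, its log2 fold change was 0.22. In Plekhg5-/- SOD1-G93A libraries P2rx4 had 21.2, 22.0 and 20.6 CPM, and in Plekhg5-/- libraries 21.4, 19.7 and 18.5 CPM. These groups overlapped each other, and the log2 fold change between the SOD1-G93A genotypes was -0.14 (95% interval -0.32 to 0.05, adjusted p = 0.634, edgeR).

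P2rx7 encodes the channel through which high ATP triggers release of interleukin-1 beta from myeloid cells. Its levels were 19.5, 20.9 and 18.2 CPM in Plekhg5+/+ and 24.2, 22.5 and 20.9 CPM in Plekhg5+/+ SOD1-G93A libraries. To the digits given, the groups met at 20.9 CPM (log2 fold change 0.20, 95% interval -0.01 to 0.42, adjusted p = 0.306, edgeR). Plekhg5-/- libraries had 18.9, 19.1 and 19.6 CPM. The Plekhg5-/- SOD1-G93A libraries were the most scattered of the 4 groups, with 17.2, 21.4 and 22.8 CPM. Some reads of P2rx7 were counted as fractions, since 5 of its 12 counts were not whole, and the microRNA gene Mir8115 lies within it on the same strand.

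The upstream sequence of P2rx4 is shown because this gene was the most abundant of the 10 per kb and had the smallest standard error. Sequences of 250 bases before an annotated transcript start, which need not be the first base of the gene, were available from RefSeq (GRCm38.p6) for 8 of the 10 genes, and P2ry6 and Adora2a were not among them. Capitals mark matches to GAGGAA, the core of sites for the myeloid factor PU.1, and to TGANTCA, the site for AP-1, on either strand. The window of P2rx4, chr5:122707294-122707543 on the plus strand, held neither of them and ends shortly inside the gene interval given above.
P2rx4: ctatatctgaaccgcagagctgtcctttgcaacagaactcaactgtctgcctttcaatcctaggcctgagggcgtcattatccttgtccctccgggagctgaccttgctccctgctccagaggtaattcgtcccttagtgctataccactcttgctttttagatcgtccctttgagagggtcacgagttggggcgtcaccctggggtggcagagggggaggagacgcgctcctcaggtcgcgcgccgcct

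The 14 windows of the 8 genes, several of which have more than 1 start, were searched for both motifs. GAGGAA was found in P2ry14, Entpd1 and Adora3, and TGANTCA in P2rx7, P2ry14 and Adora3. Over all 32851 windows of the same length, 23.3% held GAGGAA and 6.75% held TGANTCA. These shares are per window and cannot be set beside counts of genes, since several of the genes have more than 1 window. The matches are letters in a window and were not tested as binding sites.

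P2ry1 encodes an ADP receptor known from astrocytes and neurons and lies on chromosome 3 from 61002785 to 61008982. It was the only member below the range of Plekhg5+/+ mice in both single mutants. The same Plekhg5+/+ libraries enter both of these comparisons, which are thus not independent. P2ry1 had 21.3, 22.9 and 22.2 CPM in Plekhg5+/+ libraries, 15.5, 19.7 and 20.9 CPM in Plekhg5+/+ SOD1-G93A libraries and 17.2, 21.2 and 18.1 CPM in Plekhg5-/- libraries. The gap to the wild type was narrow, and neither difference passed the test (log2 fold changes -0.24, 95% interval -0.51 to 0.02, adjusted p = 0.325, and -0.23, 95% interval -0.50 to 0.03, adjusted p = 0.956, edgeR). The first Plekhg5+/+ SOD1-G93A library, the one with the most microglial marker RNA, had the least P2ry1, and without it the log2 fold change of SOD1-G93A was -0.12. The Plekhg5-/- SOD1-G93A libraries, with 17.2, 19.0 and 22.3 CPM, overlapped all other groups.

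P2ry2 encodes a receptor for ATP and UTP and lies beside P2ry6 on chromosome 7, from 100996568 to 101012053 on the minus strand. Its levels did not follow those of P2ry6. It had 1.01, 1.23 and 1.01 CPM in Plekhg5+/+ libraries, 0.878, 1.21 and 1.14 CPM in Plekhg5-/- libraries and 1.77, 1.78 and 1.14 CPM in Plekhg5+/+ SOD1-G93A libraries. The Plekhg5-/- SOD1-G93A libraries had 2.28, 1.67 and 2.46 CPM. The highest mean was theirs, and the groups with SOD1-G93A overlapped each other. In mice without Plekhg5 the SOD1-G93A libraries lay above all non-transgenic ones, at a log2 fold change of 1.00 (standard error 0.22, 95% interval 0.52 to 1.47). This was the 31st smallest p of 20155 in that comparison and did not pass the adjustment (adjusted p = 0.381, edgeR). With Plekhg5 intact the log2 fold change was 0.53 (95% interval 0.04 to 1.01, adjusted p = 0.239, edgeR), and the interaction of 0.47 did not pass either (95% interval -0.21 to 1.15, adjusted p = 0.635, edgeR).

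P2ry14 encodes the receptor for UDP-glucose and lies on the minus strand of chromosome 3, from 59114623 to 59153492, in a cluster with the related receptors P2ry12 and P2ry13. The noncoding gene F630111L10Rik, which overlaps it on the same strand, had 0 counts in all libraries. Among the 10 genes P2ry14 had the largest positive interaction. Its levels were 2.46, 2.45 and 1.9 CPM in Plekhg5+/+, 1.55, 2.11 and 1.80 CPM in Plekhg5-/-, 1.99, 2.38 and 1.11 CPM in Plekhg5+/+ SOD1-G93A and 2.53, 2.46 and 2.56 CPM in Plekhg5-/- SOD1-G93A libraries. Plekhg5-/- SOD1-G93A mice were thus above both of their reference groups, which overlapped each other. The log2 fold change of Plekhg5 loss was -0.32 without and 0.47 with the transgene, and the interaction was 0.79 (standard error 0.33, 95% interval 0.08 to 1.5, adjusted p = 0.505, edgeR). The third Plekhg5+/+ SOD1-G93A library was the lowest of the 12, and without it the log2 fold change of Plekhg5 loss with the transgene was 0.21 and the interaction 0.53.

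Markers of Schwann cells and of meningeal fibroblasts also had their highest mean sums in Plekhg5-/- SOD1-G93A libraries, the group in which P2ry2 and P2ry14 had their highest means. The sum of 4 Schwann cell markers was 230 to 351 CPM there, against 48.6 to 135 CPM in Plekhg5+/+ SOD1-G93A, 50.7 to 97.1 CPM in Plekhg5-/- and 61.9 to 239 CPM in Plekhg5+/+ libraries. The sum of 6 fibroblast markers was 225 to 399 CPM in Plekhg5-/- SOD1-G93A, 166 to 265 CPM in Plekhg5+/+ SOD1-G93A, 141 to 242 CPM in Plekhg5-/- and 154 to 249 CPM in Plekhg5+/+ libraries. None of the 10 markers was at 0 in all libraries, and 0 of them were called in any of the comparisons between these genotypes (edgeR). The 2 Plekhg5+/+ libraries with 203 and 239 CPM of Schwann cell markers also had the higher P2ry14 levels of their group, whereas their P2ry2 levels stayed at 1.01 and 1.23 CPM. In library order, the Plekhg5+/+ SOD1-G93A group had 48.6, 135 and 105 CPM of these markers and 1.99, 2.38 and 1.11 CPM of P2ry14. The Plekhg5-/- group had 50.7, 59.4 and 97.1 CPM of markers and 1.55, 2.11 and 1.80 CPM of P2ry14. In Plekhg5-/- SOD1-G93A libraries these were 263, 230 and 351 CPM of markers and 2.53, 2.46 and 2.56 CPM. Within a group, the library with the most markers did not always have the most P2ry14. Other lists also had their highest mean sums in Plekhg5-/- SOD1-G93A libraries. Endothelial markers reached 165 to 212 CPM there and 120 to 145 CPM in Plekhg5+/+ SOD1-G93A libraries, and markers of pericytes and smooth muscle 151 to 172 CPM and 113 to 145 CPM. The sums for T and NK cells (1.27 to 5.34 CPM, against 1.78 to 2.76 CPM), oligodendrocyte progenitors (120 to 134 CPM, against 112 to 139 CPM) and monocytes and neutrophils (28.2 to 262 CPM, against 48.6 to 149 CPM) overlapped between the same groups. The part of these cells in the levels of either gene was not tested.

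**Figure D3:**
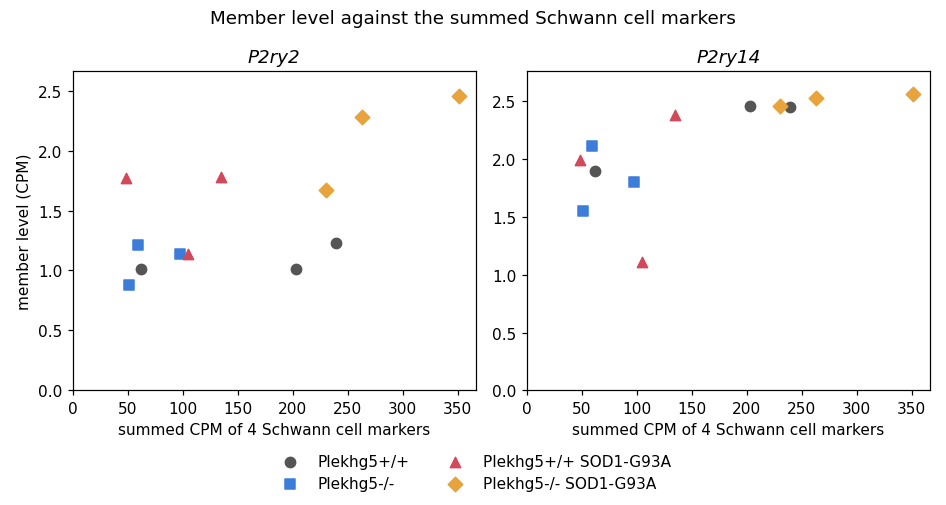
CPM of P2ry2 and P2ry14 (vertical axes) against the summed CPM of 4 Schwann cell markers (horizontal axes) in the 12 libraries, coloured by genotype. The 3 Plekhg5-/- SOD1-G93A libraries (230 to 351 CPM of markers) include the highest levels of both genes, and the Plekhg5+/+ libraries with 203 and 239 CPM reach 2.46 and 2.45 CPM of P2ry14 but only 1.01 and 1.23 CPM of P2ry2. The Plekhg5+/+ SOD1-G93A libraries with 48.6, 135 and 105 CPM of markers have 1.99, 2.38 and 1.11 CPM of P2ry14. The Plekhg5-/- libraries with 50.7, 59.4 and 97.1 CPM of markers have 1.55, 2.11 and 1.80 CPM of it.

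Entpd1 encodes the ectonucleotidase that hydrolyses extracellular ATP and ADP to AMP, and is known as a surface enzyme of microglia and endothelium. It spans chromosome 19 from 40612366 to 40741602, and all of its 12 counts were whole although the pseudogene Gm8783 lies within its interval on the same strand. It had 15.8, 16.4 and 14.5 CPM in Plekhg5+/+ libraries and 23.2, 15.6 and 15.4 CPM in Plekhg5+/+ SOD1-G93A libraries. Only the first SOD1-G93A library lay above the wild type, and without it the log2 fold change was -0.01, in place of 0.21 with it (95% interval -0.08 to 0.51, adjusted p = 0.454, edgeR). The Plekhg5-/- libraries had 14.9, 13.3 and 13.5 CPM and the Plekhg5-/- SOD1-G93A libraries 17.8, 16.3 and 15.1 CPM, with no overlap. This difference, a log2 fold change of 0.23, did not pass the test (95% interval -0.06 to 0.53, adjusted p = 0.95, edgeR).

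Both annotated starts of Entpd1 are shown, since their upstream windows differ. The first, chr19:40612116-40612365 on the plus strand, held 18 CpG pairs and neither motif. The second, chr19:40659520-40659769, held 8 CpG pairs and 2 matches to GAGGAA. The counts do not tell the starts apart.
Entpd1, first start: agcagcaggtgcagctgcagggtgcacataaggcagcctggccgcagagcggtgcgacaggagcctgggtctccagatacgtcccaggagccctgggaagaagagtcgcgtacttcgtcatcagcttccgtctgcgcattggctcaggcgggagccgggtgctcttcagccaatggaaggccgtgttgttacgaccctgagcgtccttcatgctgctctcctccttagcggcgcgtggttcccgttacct
Entpd1, second start: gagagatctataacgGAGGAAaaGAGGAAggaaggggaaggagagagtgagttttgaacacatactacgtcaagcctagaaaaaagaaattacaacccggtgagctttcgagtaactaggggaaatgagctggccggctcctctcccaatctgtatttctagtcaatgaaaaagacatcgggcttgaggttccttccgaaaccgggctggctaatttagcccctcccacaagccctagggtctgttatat

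Nt5e encodes the enzyme that converts AMP to adenosine and lies on chromosome 9 from 88327609 to 88372089. Apart from 1 library its levels stayed within a narrow range. The first Plekhg5+/+ library had 6.03 CPM, while the other 11 libraries had 8.38 to 9.81 CPM. Log2 fold changes were 0.04 to 0.19 in the 4 comparisons of genotypes, with adjusted p-values of 0.497 to 0.997 (edgeR). Without the first Plekhg5+/+ library, the log2 fold change of SOD1-G93A with Plekhg5 intact was 0.02 in place of 0.19, and that of Plekhg5 loss without the transgene was -0.06 in place of 0.11.

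Adora2a encodes a stimulatory adenosine receptor and lies on chromosome 10 from 75316877 to 75334792. Its levels were 1.51 ± 0.244 CPM (SD, n = 3) in Plekhg5+/+, 1.24 ± 0.285 CPM in Plekhg5-/-, 1.62 ± 0.177 CPM in Plekhg5+/+ SOD1-G93A and 1.53 ± 0.202 CPM in Plekhg5-/- SOD1-G93A mice. The groups overlapped in all comparisons. The log2 fold change of SOD1-G93A was 0.10 with Plekhg5 intact (95% interval -0.33 to 0.53) and 0.30 without Plekhg5 (95% interval -0.13 to 0.74). That of Plekhg5 loss was -0.08 with the transgene (95% interval -0.51 to 0.34) and -0.29 without it (95% interval -0.72 to 0.15). These values rest on 33 to 60 counts per library.

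Adora3 encodes an inhibitory adenosine receptor that is known from microglia, and lies on chromosome 3 from 105904421 to 105908928. It had 0.928, 1.01 and 0.766 CPM in Plekhg5+/+ libraries, 0.878, 0.572 and 0.789 CPM in Plekhg5-/- libraries, 1.37, 0.924 and 1.41 CPM in Plekhg5+/+ SOD1-G93A libraries and 0.833, 0.546 and 0.673 CPM in Plekhg5-/- SOD1-G93A libraries. All Plekhg5-/- SOD1-G93A libraries lay below all Plekhg5+/+ SOD1-G93A libraries. The log2 fold change was -0.85 (standard error 0.24, 95% interval -1.38 to -0.33), which had the smallest unadjusted p of the 10 genes in that comparison (adjusted p = 0.402, edgeR). With Plekhg5 intact, the log2 fold change of SOD1-G93A was 0.46 (95% interval -0.05 to 0.97, adjusted p = 0.338, edgeR).

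The gene Tmigd3 spans Adora3 on the same strand, and 5 of the 12 Adora3 counts were not whole. Tmigd3 itself had 0.473 CPM in Plekhg5+/+, 0.730 in Plekhg5+/+ SOD1-G93A, 0.406 in Plekhg5-/- and 0.430 in Plekhg5-/- SOD1-G93A mice on average. Both genes had their highest mean in Plekhg5+/+ SOD1-G93A mice. Reads on shared exons were divided between them, so the level of Adora3 is uncertain to that extent. The window upstream of Adora3, chr3:105904171-105904420 on the plus strand, is shown because it held both motifs, with 1 match each.
Adora3: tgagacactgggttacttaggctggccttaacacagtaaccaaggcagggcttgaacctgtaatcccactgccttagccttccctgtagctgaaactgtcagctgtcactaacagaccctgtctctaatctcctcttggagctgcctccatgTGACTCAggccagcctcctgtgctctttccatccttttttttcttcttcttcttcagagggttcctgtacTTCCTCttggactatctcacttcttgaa

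The microglial markers moved with some members and not with others. Over the 12 libraries, log2 levels had Pearson correlations with the summed markers of 0.96 for P2rx4, 0.95 for P2ry6 and 0.75 for Entpd1. They were 0.57 for P2rx7, 0.55 for Adora3, 0.40 for P2ry2, 0.39 for Adora2a and 0.25 for Nt5e. For P2ry14 and P2ry1 they were -0.25 and -0.63. These correlations were not tested. Of 12 markers of microglia and macrophages, 10 rose with SOD1-G93A when Plekhg5 was intact (edgeR), and none was at 0 in all libraries. The rise was uneven, with log2 fold changes from 0.25 for Tmem119 to 2.36 for Cd68. Tmem119 (adjusted p = 0.496, edgeR) and Fcgr3 (1.07, adjusted p = 0.0519, edgeR) did not pass. The summed level of the 12 markers was 494 to 572 CPM in Plekhg5+/+ and 537 to 738 CPM in Plekhg5-/- libraries. With SOD1-G93A it was 963 to 1870 CPM in Plekhg5+/+ and 703 to 793 CPM in Plekhg5-/- libraries. The part of these markers in the differences of the members was not tested. Among the other marker lists, 1 of 6 markers of border macrophages and 1 of 8 of astrocytes rose in the same comparison, and 0 were called for monocytes and neutrophils, T and NK cells, oligodendrocytes and their progenitors, neurons, motoneurons, endothelium, pericytes and smooth muscle, and red cells (edgeR).

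Scaled to 1000 CPM of the summed microglial markers, P2ry6 had 4.65, 4.90 and 3.53 CPM in Plekhg5+/+, 4.01, 3.89 and 3.23 CPM in Plekhg5-/-, 3.93, 3.67 and 4.16 CPM in Plekhg5+/+ SOD1-G93A and 3.96, 3.90 and 3.35 CPM in Plekhg5-/- SOD1-G93A libraries. All 4 groups overlapped on this scale, including the comparison in which P2ry6 was called without it. On the same scale P2rx4 had 34.2, 37.3 and 32.3 CPM in Plekhg5+/+ and 14.1, 22.5 and 21.3 CPM in Plekhg5+/+ SOD1-G93A libraries, with 26.7, 28.6 and 29.3 CPM in Plekhg5-/- SOD1-G93A libraries. P2rx4 thus varied less than the markers did. For Entpd1 the scaled levels were 28.8 ± 4.02 CPM (SD, n = 3) in Plekhg5+/+ and 14.5 ± 1.93 CPM in Plekhg5+/+ SOD1-G93A mice. In Plekhg5-/- mice they were 22.1 ± 2.67 CPM, and in Plekhg5-/- SOD1-G93A mice 21.7 ± 0.638 CPM. Any gene that rises less than the marker sum falls on this scale. Nt5e had 14.9 ± 3.87 CPM in Plekhg5+/+ and 7.74 ± 2.59 CPM in Plekhg5+/+ SOD1-G93A mice on it. The scaled levels thus do not measure RNA per cell.

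**Figure D4:**
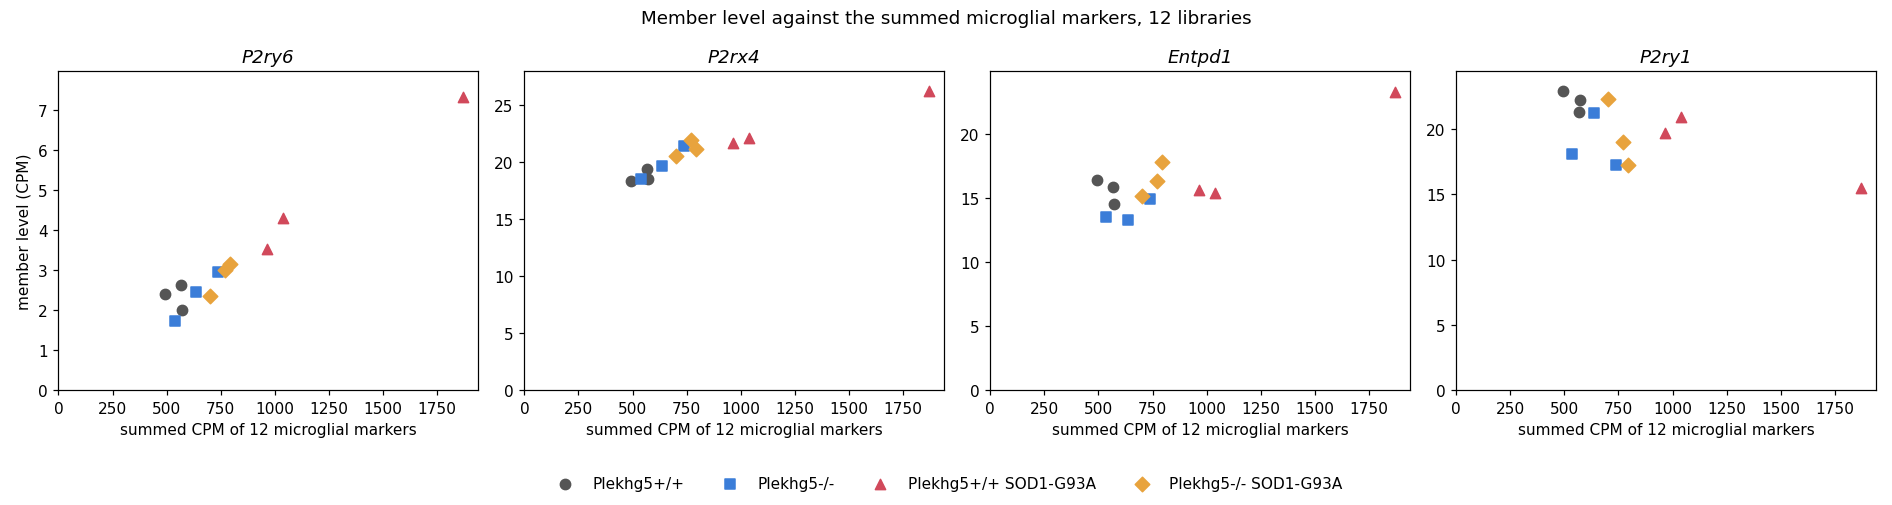
CPM of P2ry6, P2rx4, Entpd1 and P2ry1 (vertical axes, starting at 0) against the summed CPM of 12 markers of microglia and macrophages (horizontal axes) in the 12 libraries, coloured by genotype. P2ry6 lay between 3.23 and 4.90 CPM per 1000 CPM of markers throughout, and the library with 1870 CPM of markers had the highest P2ry6, P2rx4 and Entpd1 and the lowest P2ry1.

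Across the 12 libraries, the genes whose log2 levels were most like those of P2ry6 were Fcgr3, an Fc receptor gene and one of the 12 microglial markers, Inpp5d and the chemokine gene Ccl6, with Pearson correlations of 0.99, 0.98 and 0.97. Those most like P2rx4 were the astrocyte filament gene Gfap, Xlr and S100a6, with 0.98 each. Entpd1 was most like D17H6S56E-5, Slfn2 and Ms4a6c, with 0.95, 0.94 and 0.94. Without the first Plekhg5+/+ SOD1-G93A library these were 0.94 to 0.96 for P2ry6, 0.95 for P2rx4 and 0.81 to 0.90 for Entpd1. The libraries fall into genotypes and share this library, so the correlations describe a pattern over 12 points and were not tested. The genes most like the others were Pcdhga10 (0.91 with P2rx7), Trmt44 (0.90 with P2ry1), Gask1b (0.91 with P2ry2), Tbck (0.93 with P2ry14), Gm38863 (0.93 with Nt5e), 6430584L05Rik (0.87 with Adora2a) and Snx18 (0.90 with Adora3).

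The rest of the pathway was followed with 39 further genes for receptors, nucleotide and nucleoside enzymes, transporters and release channels, of which 32 were tested. In edgeR's test with Plekhg5 intact, SOD1-G93A raised 1 of them, P2ry12, and lowered 0. Of all genes, 2.09% passed upward and 2.47% in either direction. At an unadjusted p under 0.05, 7 were higher and 3 lower, beside 18.2% of all genes. Over the 32 genes the median log2 fold change was 0.10, beside 0.00 for all genes tested. P2ry12, an ADP receptor by which microglial processes find injured cells, had 32.2, 29.4 and 30.3 CPM in Plekhg5+/+ and 43.1, 40.1 and 48.1 CPM in Plekhg5+/+ SOD1-G93A libraries, a log2 fold change of 0.52 with a standard error of 0.12 (adjusted p = 0.0493, edgeR). Plekhg5-/- libraries had 47.3, 36.9 and 31.1 CPM and Plekhg5-/- SOD1-G93A libraries 35.6, 34.0 and 38.1 CPM. Of the 12 fits that left out 1 library, the call held in 3, without the first or the third Plekhg5-/- library (adjusted p = 0.0173 and 0.0286) or the second Plekhg5+/+ SOD1-G93A library (0.0446). In the other 9 the adjusted p was 0.0653 to 0.189 (edgeR).

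P2ry13, another ADP receptor of the same cluster, had 10.7 ± 1.46 CPM (SD, n = 3) in Plekhg5+/+ and 16.8 ± 2.12 CPM in Plekhg5+/+ SOD1-G93A mice (log2 fold change 0.65, adjusted p = 0.0706, edgeR). It passed with DESeq2 without a prior (adjusted p = 0.0136) and with one (0.0134), and in edgeR with the replicate block (0.0352), without the first Plekhg5-/- library (0.033) and without the last (0.0377). In Plekhg5-/- SOD1-G93A mice it had 13.2 ± 1.52 CPM and in Plekhg5-/- mice 13.1 ± 3.51 CPM. The neighbours P2ry12, P2ry13 and P2ry14 thus differed in their values, with log2 fold changes of 0.52, 0.65 and -0.32 for SOD1-G93A with Plekhg5 intact. Without the third Plekhg5+/+ SOD1-G93A library, that of P2ry14 was -0.06. No test compared the 3 genes with each other. In the other 3 comparisons of genotypes and in the interaction, 0 of the 32 further genes were called by edgeR. At an unadjusted p under 0.05, there were 3 with Plekhg5 loss in SOD1-G93A mice (8.64% of all genes), 3 with Plekhg5 loss alone (5.32%), 3 with SOD1-G93A without Plekhg5 (5.38%) and 4 in the interaction (9.05%). DESeq2 called 0 in these.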

How the data were processed

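Per the methods of the study, the authors prepared polyadenylated RNA with a stranded kit, trimmed single-end reads with Cutadapt 2.4, mapped them with STAR 2.7.2b to GRCm38.p6 extended by a human SOD1 cDNA, and assigned them by strand to RefSeq exons with featureCounts 1.6.4. Reads with several matches or on several genes were counted as fractions, so the deposited values are expected or estimated counts, without normalization. The deposited exon length per gene served for levels per kb. The 12 columns were matched to mice by their labels.

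Counts were rounded. Genes were filtered with filterByExpr, normalized with TMM and tested in edgeR 4.0.16 (R 4.3.3) by the robust quasi-likelihood method, with all 12 libraries in one fit. Benjamini-Hochberg adjustment ran over 20155 genes, with a threshold of 0.05. Standard errors and intervals derive from the F statistic. Log2 CPM used a prior count of 2. The fits were also run on simulated data in which each gene was drawn independently. Such data lack deviations that many genes of 1 library share. Libraries of 1 genotype differed from each other beyond sampling noise (chi-square over degrees of freedom 5.684 to 27.5). Alternatives were DESeq2 1.42.0 with and without a fold-change prior, DESeq2's size factors, other filters (none, or at least 10 counts in every library), only 2 genotypes, a replicate block, a covariate for Y-linked transcripts (over 1000 counts, in 3, 2, 2 and 1 libraries of the genotypes in the order Plekhg5+/+, Plekhg5-/-, Plekhg5+/+ SOD1-G93A and Plekhg5-/- SOD1-G93A), and each library left out in turn.

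The members, the further pathway genes and the marker lists were chosen with earlier results of these data known. Named are the members, P2ry12 and P2ry13, and further pathway genes past the threshold in edgeR's main fit or in DESeq2. Genes overlapping a member on its strand and the genes most correlated with each member are named as well. Acpp, Ada, Adora1, Adora2b and P2rx3 were picked after their values were seen.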

Additional observations from a re-analysis of the deposited data

Results flagged for a closer look

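P2ry14 was flagged because its libraries without Plekhg5 lay on opposite sides of the reference mean with and without SOD1-G93A. The share of all genes that meet this rule was not counted. All 3 Plekhg5-/- libraries (1.55 to 2.11 CPM) lay below the Plekhg5+/+ mean of 2.27 CPM, whereas all 3 Plekhg5-/- SOD1-G93A libraries (2.46 to 2.56 CPM) lay above the Plekhg5+/+ SOD1-G93A mean of 1.82 CPM. The difference itself, the interaction of edgeR's fit, was 0.79 on the log2 scale and did not pass the adjustment over all genes (adjusted p = 0.505). With 1 library left out in turn it was 0.53 to 1.04. Groups of 3 mice are too small to test single libraries as outliers.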

How the results depend on the processing

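In SOD1-G93A against wild type with Plekhg5 intact, the calls were 1 member, 1 further pathway gene and 498 genes in all. DESeq2 without a prior called 2, 4 and 1172, and with a prior 2, 4 and 1198. The 4 further pathway genes were P2ry12, P2ry13, Entpd2 and Entpd3 in both. Without a prior, Entpd2 was higher (log2 fold change 0.33, adjusted p = 0.0363, DESeq2) and Entpd3 lower (-0.25, adjusted p = 0.0411, DESeq2). With only the 2 genotypes in the fit, 0, 0 and 3 were called, and P2ry6 had an adjusted p of 0.109 (log2 fold change 1.08, edgeR). The further pathway gene, P2ry12, was lost (0 calls) with DESeq2's size factors, without a filter and with at least 10 counts in every library, at adjusted p-values of 0.0509 to 0.0571. The replicate block gave 2 further pathway genes. Same-numbered mice are different animals. Their deviations from the group means had correlations of -0.16 to 0.32 over 18 pairs, with a mean of 0.04. The mean for other pairs, -0.02, largely follows from it, since deviations cancel out within each group. Of 12 samples, 7 were closest to their own number. Whether the numbers mark a shared batch was not tested, and the block changed no call of a member. Leaving out 1 library gave 0 to 2 members, 0 to 4 further genes and 2 to 771 genes in all.

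In Plekhg5-/- SOD1-G93A against Plekhg5+/+ SOD1-G93A mice, 7 genes in all were called, with 71 and 114 by DESeq2 without and with a prior, 11 with only 2 genotypes and 4 to 8 with 1 library left out. With Plekhg5 loss alone there were 6, with 36 and 35 by DESeq2 and 5 to 59 with 1 library left out. With SOD1-G93A without Plekhg5 there was 1, with 44 and 42 by DESeq2, 20 with only 2 genotypes, 0 with at least 10 counts in every library and 1 to 9 with 1 library left out. The gene called in the main fit, human SOD1, had 5 counts in the third Plekhg5+/+ library. It was therefore not tested under the filter of at least 10 counts. The interaction had 0, with 102 by DESeq2 without a prior (it was not run with one), 1 without a filter and 0 to 40 with 1 library left out. The number of members called was 0 in these 4 under every alternative run.

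With the Y-linked indicator, log2 fold changes of P2ry1 turned to -0.02 with Plekhg5 loss in SOD1-G93A mice and to -0.02 with SOD1-G93A without Plekhg5, and that of Adora3 in the latter to 0.06. With 1 library left out, values near 0 turned sign. With SOD1-G93A and Plekhg5 intact these were Entpd1 (-0.01 to 0.32) and Adora2a (-0.03 to 0.22). With Plekhg5 loss in SOD1-G93A mice they were P2ry1 (-0.06 to 0.15), Entpd1 (-0.24 to 0.08) and Nt5e (0.00 to 0.07). With Plekhg5 loss alone they were P2rx7 (-0.08 to 0.02), P2ry2 (-0.11 to 0.11), P2ry6 (-0.16 to 0.20) and Nt5e (-0.06 to 0.20). With SOD1-G93A without Plekhg5 they were P2ry1 (-0.07 to 0.14) and Adora3 (-0.29 to 0.01), and in the interaction P2rx7 (-0.19 to 0.02), Entpd1 (-0.08 to 0.24) and Nt5e (-0.16 to 0.10). The cause of these changes was not tested. P2ry2, P2ry14, Adora2a and Adora3 rested on 18 to 99 counts per library, and every group had 3 libraries.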

Other observations

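Among the further pathway genes, Adora2b, which encodes a low-affinity adenosine receptor, had 10.2, 8.68 and 10.3 CPM in Plekhg5+/+ SOD1-G93A and 6.26, 6.56 and 8.16 CPM in Plekhg5-/- SOD1-G93A libraries, with no overlap (log2 fold change -0.48, adjusted p = 0.492, edgeR). Its interaction was -0.69 (adjusted p = 0.416, edgeR). Adora1, the most abundant of the adenosine receptors, had 246 to 282 CPM in all 12 libraries. Single libraries stood out in 2 enzymes. Ada, the adenosine deaminase gene, had 6.11 CPM in the first Plekhg5-/- library, and the second Plekhg5-/- SOD1-G93A library had 4.10 CPM beside 1.26 and 1.55 CPM in its group. Acpp, which encodes an acid phosphatase that makes adenosine from AMP in sensory neurons, had 6.04 CPM in that same library and 0.870 to 2.14 CPM in the other 11. P2rx3, a channel of sensory neurons, was also highest there, at 6.50 CPM against 2.78 to 4.46 CPM elsewhere.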
